A study of Mus musculus with 16 samples.

Results

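The genes that encode the proteins of the cytosolic ribosome were followed in mouse prostate by RNA sequencing. Members were the genes whose symbol is Rpl or Rps with a number, or Rplp0, Rplp1, Rplp2 or Rpsa, and whose mean over the 16 libraries was at least 3.32 on the deposited log2 scale. The name pattern matched 88 of the 29535 genes in the table and 85 of these reached the level. They were 43 large subunit genes, 31 small subunit genes, the 3 genes of the P stalk, 4 paralogs (Rpl3l, Rpl7l1, Rpl22l1 and Rps27l) and 4 symbols that RefSeq annotates as pseudogenes (Rps3a2, Rps3a3, Rps12l1 and Rps4y2). Just inside the threshold lay Rpl3l at 3.61 and Rpl23a at 3.92, and just outside it lay Rps12l2 at 3.27, Rpl39l at 1.77 and Rpl10l at 1.39. The same level set which genes were tested, so all 85 were among the 16503 genes in the fit.

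The libraries came from mice aged 12 months on a mixed background of 129/SvImJ and C57Bl/6J. Wild type mice (Nkx3.1 +/+) had received vehicle in 3 libraries and finasteride in 5, and homozygous mutants (Nkx3.1 -/-) had received vehicle in 3 and finasteride in 5. Finasteride blocks the steroid reductase that makes dihydrotestosterone, the main androgen of the prostate, from testosterone. Neither dose nor length of treatment is given in the sources used here, and they do not say whether libraries came from different mice. The p-values therefore speak only of the spread among these libraries.

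A ribosome joins a large subunit, which forms peptide bonds, to a small subunit, which reads the messenger RNA. Ribosomal proteins are made in matched amounts, and their mRNAs mostly begin with a C followed by a run of C and T, the 5' terminal oligopyrimidine (TOP) motif, through which mTOR and Larp1 adjust their translation and stability together. Compact genes of this kind have left many processed pseudogenes in mammalian genomes, which complicates the placing of short reads.

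Of the 16 libraries, 5 lay close to a mixture of a pair of others from their own group. These were wild type vehicle 3, wild type finasteride 4, mutant vehicle 3 and mutant finasteride 3 and 4, with residual SDs of 0.0764 to 0.0968 on the log2 scale against 0.121 to 0.402 in the others. Whether these 5 are separate samples is unknown, and SDs and p-values over 16 libraries count them as such. Counts of members are therefore given over 16 libraries and again over the other 11. The tissue label was met by the 5 luminal epithelial markers (Krt8, Krt18, Epcam, Cdh1 and Pbsn), all above the test level, with a summed log2 level of 15.33 to 18.49 per library. Seminal vesicle markers varied far more, from 9.40 to 21.68, within groups as well as between them. The tissue was taken in bulk, so fewer cells of a type and less RNA per cell cannot be told apart.

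RefSeq promoters (build GRCm38.p6) were found for 61 of the 85 members. A C followed by 4 bases that are C or T stood exactly at an annotated start in 13 of the 61 (21.3%), against 3.01% of 27025 genes, and within 10 bases of it in 60.7% against 34.4%. Some starts are shown here because they belong to members whose values are given below, and each window runs from 15 bases before the annotated start to the 15 bases that begin with it. Capitals mark the run of C and T that fits the motif.
Rpl35 (chr2:39005117-39005146, minus strand): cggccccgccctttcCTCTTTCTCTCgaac
Rpl15 (chr14:18270972-18271001, minus strand): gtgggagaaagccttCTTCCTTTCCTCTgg
Rplp2 (chr7:141447636-141447665, plus strand): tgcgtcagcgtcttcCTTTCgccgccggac
Rps6 (chr4:86857353-86857382, minus strand): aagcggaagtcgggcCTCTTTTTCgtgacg
Rpl12 (chr2:32961697-32961726, plus strand): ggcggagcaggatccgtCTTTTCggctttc
Rps26 (chr10:128626492-128626521, minus strand): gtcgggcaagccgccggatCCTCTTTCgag
In Rpl35, Rpl15, Rplp2 and Rps6 the run began at the annotated start, and in Rpl12 and Rps26 it began a few bases inside the transcript. The sequence CCGGAAG, searched on both strands over the 300-base promoter and known as a core bound by ETS family factors, was in 41.0% of the 61 members and in 9.93% of all genes. CACGTG, the E-box bound by Myc (the same on both strands), was in 9.84% against 8.09%, and TATAAA, searched on the gene's strand, was in 9.84% against 9.77%. A match describes the letters of the window and says nothing of binding.

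The large subunit genes stood lowest in wild type prostate on vehicle and highest in wild type prostate on finasteride. Their mean log2 value per library was 9.43, 9.74 and 9.68 in wild type on vehicle, a group mean of 9.62 ± 0.17 (SD, n = 3). In wild type on finasteride it was 10.26, 9.76, 10.24, 10.25 and 10.30, a mean of 10.16 ± 0.23 (SD, n = 5). Every finasteride-treated wild type library lay above every vehicle library, but library 2 by only a narrow margin. In the mutant on vehicle the values were 10.07, 9.83 and 9.91 (9.94 ± 0.12, SD, n = 3), and in the mutant on finasteride 9.36, 10.21, 9.54, 9.72 and 9.87 (9.74 ± 0.33, SD, n = 5). The mutant groups overlapped each other, and the mutant vehicle libraries all lay above those of wild type on vehicle. Libraries 2 and 5 of the treated mutants, at 10.21 and 9.87, lay above treated wild type library 2 (9.76) and below the other treated wild types. The remaining treated mutants lay below all treated wild types.

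The small subunit genes moved with the large subunit genes. Their group means were 10.37 ± 0.13 (SD, n = 3) in wild type on vehicle, 10.96 ± 0.25 (SD, n = 5) in wild type on finasteride, 10.64 ± 0.18 (SD, n = 3) in the mutant on vehicle and 10.50 ± 0.37 (SD, n = 5) in the mutant on finasteride. The difference of the large minus the small subunit mean was -0.75 ± 0.04, -0.79 ± 0.12, -0.70 ± 0.05 and -0.76 ± 0.07 in the same order of groups, and its range over single libraries, -0.97 to -0.64, was set by libraries of wild type on finasteride. The groups overlapped in this difference. Across the 16 libraries, which share groups and scaling, the subunit means had a Pearson r of 0.971.

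As a share of the summed value of all genes in a library, the 85 members made up 1.08% ± 0.19 (SD, n = 3) in wild type on vehicle, 1.504% ± 0.204 (SD, n = 5) in wild type on finasteride, 1.38% ± 0.13 (SD, n = 3) in the mutant on vehicle and 1.49% ± 0.47 (SD, n = 5) in the mutant on finasteride. On this scale the treated groups overlapped, with a median of 1.41% in the mutant and 1.53% in wild type. The wild type groups overlapped as well, with 0.88% to 1.26% on vehicle and 1.19% in treated library 2. The treated mutant libraries held 1.04%, 2.26%, 1.20%, 1.41% and 1.56%, so that the upper end was library 2 alone, and the treated wild types ran from 1.19% to 1.73%. The deposited values of the treated mutants sum to less (log2 sums of 24.07 to 24.16) than those of the treated wild types (24.41 to 24.55), so comparisons that involve the treated mutants are given both as deposited and with each library scaled to the same sum.

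**Figure D1:**
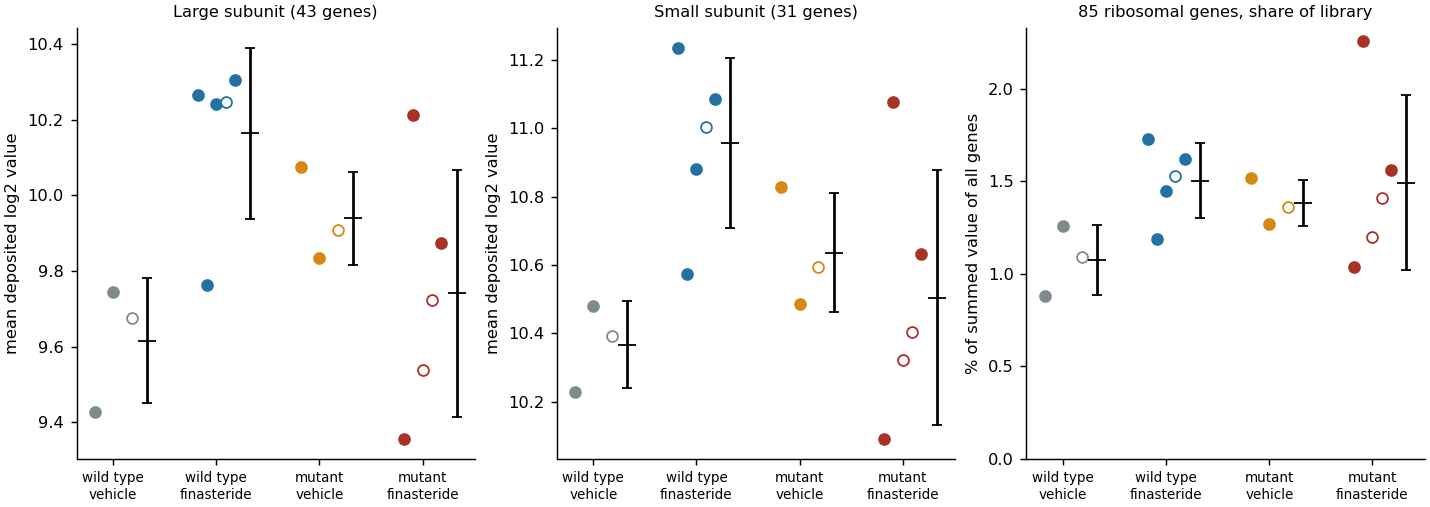
Mean deposited log2 value of the 43 large subunit genes (left) and the 31 small subunit genes (middle), and the share of each library's summed value held by the 85 ribosomal genes in percent (right). Each point is a library, open points are the 5 libraries close to a mixture of others, and bars are the group mean ± SD. Wild type libraries on finasteride lie above those on vehicle in both subunits but overlap them in the share, and the treated mutants spread most.

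Genotype on vehicle was compared first. In mutant against wild type prostate on vehicle, 5 of 85 members were higher and 1 was lower (limma, Benjamini-Hochberg adjusted p under 0.05), while 14.6% of all tested genes were higher and 17.5% lower. The median member changed by 0.27, beside 0.00 for all tested genes, and 74 of the 85 had a positive change. The groups did not overlap, with the mutant higher, in 40 members (47.1%), beside 27.9% of all tested genes. Over 11 libraries none passed by limma, where 9.3% of all tested genes did. At an unadjusted p under 0.05, 6 were higher and 0 lower there, a count with no share of all tested genes beside it. With all libraries of these 2 groups fitted alone, 31 members were higher and 1 lower at an adjusted p under 0.05, again with no such share.

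Cell type markers moved in the same comparison. Of 5 luminal markers 1 was higher and 2 were lower in the mutant, with a summed log2 level of 16.44 to 16.51 against 18.24 to 18.47 in wild type. Levels were summed out of log2, so the most abundant marker weighs most. The lower were Pbsn, at -2.54, and Cdh1, at -0.39, and the higher was Epcam, at 0.73. Of 6 fibroblast markers 5 were lower, with 13.55 to 13.73 against 14.38 to 14.55, and 5 of 6 macrophage markers were lower, with 11.20 to 11.30 against 11.79 to 11.81. Higher were 4 of 7 T and NK cell markers, with 8.24 to 8.32 against 7.5 to 7.73, and 2 of 3 tested urothelial markers, with 13.81 to 14.60 against 13.08 to 13.24. Their part in the ribosomal values was not tested.

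The stalk, the flexible arm of the large subunit that recruits the translation GTPases, stood out in this comparison by Rplp1, one of its acidic proteins. Rplp1 had values of 13.32, 13.63 and 13.52 in wild type and 14.50, 14.34 and 14.38 in mutant libraries on vehicle. The groups lay well apart, with a log2 change of 0.91 ± 0.28 (SE, limma adjusted p = 0.0204). That call was lost over 11 libraries (adjusted p = 0.168) and without wild type vehicle 1 (0.0681) or 3 (0.0507) or mutant vehicle 1 (0.0627) or 3 (0.0511), with changes of 0.83 to 0.93. The other members called higher were Rpl13, Rpl27, Rps2 and Rps26, by 0.58 to 0.80. Rps26, a small subunit protein at the mRNA exit channel, rose from 10.87, 11.26 and 11.19 to 12.07, 11.74 and 11.92, a change of 0.80 ± 0.23 (SE, limma adjusted p = 0.0143), and its groups did not overlap. Its call too was lost over 11 libraries (adjusted p = 0.122).

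Rpl22l1, a paralog that can take the place of Rpl22 in the large subunit, was the 1 member called lower. It had 9.03, 8.93 and 9.21 in wild type and 8.47, 8.49 and 8.66 in mutant libraries on vehicle, a change of -0.51 ± 0.16 (SE, limma adjusted p = 0.0215). There was no overlap, and the direction was opposite to that of most members. The call was lost over 11 libraries (adjusted p = 0.206) and without wild type vehicle 3 (0.0902) or mutant vehicle 1 (0.0695) or 2 (0.0658), with changes of -0.50 to -0.44.

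In wild type prostate finasteride was followed by higher values of 46 of the 85 members and lower values of none (limma adjusted p under 0.05, with 0 lower at an unadjusted p under 0.05 too), beside 18.4% of all tested genes higher and 21.7% lower. By class, 23 of 43 large subunit genes, 19 of 31 small subunit genes, 3 of 3 stalk genes, 1 of 4 paralogs and 0 of 4 pseudogene symbols rose. The median log2 change was 0.53 for the large subunit, 0.62 for the small subunit and 0.75 for the stalk, and 0.56 for all 85 against -0.02 for all tested genes. The groups did not overlap in 33 members (38.8%), beside 16.8% of all tested genes. Over 11 libraries the median was 0.50 and 83 of 85 changes were positive, but none passed by limma, where 8.71% of all tested genes did. At an unadjusted p under 0.05, 29 were higher and 0 lower, a count with no share of all tested genes at that threshold beside it. With each of the 16 libraries scaled to the same sum 19 members were higher and 0 lower, beside 9.47% of all tested genes higher and 27.9% lower.

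Other measures moved with this comparison. All 7 seminal vesicle markers fell, with a summed log2 level of 9.82 to 21.68 on vehicle and 9.40 to 14.34 on finasteride, and all 5 adipocyte markers fell, from 9.49 to 10.11 down to 4.77 to 8.73. Of 6 fibroblast markers 4 fell (14.38 to 14.55 on vehicle, 13.48 to 14 on finasteride), as did 4 of 6 macrophage markers (11.79 to 11.81, then 10.81 to 11.45), 4 of 6 B and plasma cell markers (7.86 to 7.92, then 6.12 to 6.88) and 1 of 3 tested urothelial markers (13.08 to 13.24, then 12.32 to 12.58). In wild type vehicle 1, 2 and 3 the summed seminal vesicle level was 21.68, 9.82 and 20.37, and the large subunit mean 9.43, 9.74 and 9.68. The lowest treated wild type library had a large subunit mean of 9.76. The 653 other tested genes with transcripts under 1000 bases, the length class of 46 members, changed by a median of 0.06. The part of any of these in the result was not tested.

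All 3 stalk genes rose on finasteride in wild type. Rplp0, the stalk base, had 13.59, 14.01 and 13.75 on vehicle and 14.84, 14.08, 14.53, 14.54 and 14.65 on finasteride, a change of 0.75 ± 0.22 (SE, limma adjusted p = 0.0159, and 0.0429 with equal sums). No treated value fell among the vehicle values, though treated library 2 lay close to vehicle library 2. Rplp1 changed by 0.70 ± 0.25 (SE, limma adjusted p = 0.0362, and 0.0871 with equal sums) and Rplp2 by 0.79 ± 0.28 (SE, limma adjusted p = 0.0326). Over 11 libraries Rplp0, Rplp1 and Rplp2 lost the call (limma adjusted p = 0.152, 0.199 and 0.169).

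Among large subunit genes, Rpl35, at the peptide exit tunnel, had the largest change. Its values were 6.49, 7.24 and 7.41 on vehicle and 8.04, 7.18, 9.27, 9.36 and 9.45 on finasteride, a change of 1.62 ± 0.60 (SE, limma adjusted p = 0.0428). Libraries 3 to 5 stood about a further log2 unit above library 1, and library 2 lay inside the vehicle range. The call was lost over 11 libraries (adjusted p = 0.171), with equal sums (0.0607), with no variance trend (0.0534), with no filter on low values (0.0539) and without any one of wild type vehicle 1, 2 or 3, wild type finasteride 3, 4 or 5 or mutant finasteride 5 (0.0534 to 0.163, changes of 1.339 to 1.796). Rpl12, a protein at the foot of the stalk, had 8.44, 9.09 and 9.65 on vehicle and 10.74, 10.13, 10.64, 10.76 and 10.08 on finasteride. Its groups did not overlap, with a change of 1.41 ± 0.37 (SE, limma adjusted p = 0.00811), which became 1.10 with adjusted p = 0.0585 without wild type vehicle 1 and 1.63 with 0.0515 over 11 libraries. Rpl30 followed with 1.30 ± 0.48 (SE, limma adjusted p = 0.0422, 0.0597 with equal sums and 0.27 over 11 libraries), on values that overlapped between the groups.

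Rps26 led the small subunit genes. On finasteride it had 12.00, 11.57, 11.97, 12.12 and 12.18, all above the 3 vehicle libraries given above, a change of 0.86 ± 0.20 (SE, limma adjusted p = 0.0042). Rps2 followed with 0.86 ± 0.17 (SE, limma adjusted p = 0.00159). Rpsa, which also serves as the laminin receptor precursor, changed by 0.79 ± 0.24 (SE, limma adjusted p = 0.0164). Over 11 libraries Rps26, Rps2 and Rpsa lost the call (limma adjusted p = 0.0679, 0.0582 and 0.145). Rps6, the target of the S6 kinases, changed by 0.21 ± 0.19 (SE, limma adjusted p = 0.392) and did not pass, as did Rpl3, which lies near the peptidyl transferase centre (0.42 ± 0.19, SE, limma adjusted p = 0.0965).

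Rpl15, a large subunit protein inside the rRNA core, had 9.52, 9.48 and 9.68 on vehicle and 9.59, 9.43, 9.56, 9.55 and 9.82 on finasteride. The groups overlapped throughout, with a change of 0.03 ± 0.08 (SE, limma adjusted p = 0.807), the smallest of the large subunit genes. Its start carries a longer run of C and T than that of Rpl35. Of the 57 subunit and stalk genes with a RefSeq start window, 7 of the 13 with the motif at the start rose (median 0.63) and 25 of the 44 without it rose (median 0.55).

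**Figure D2:**
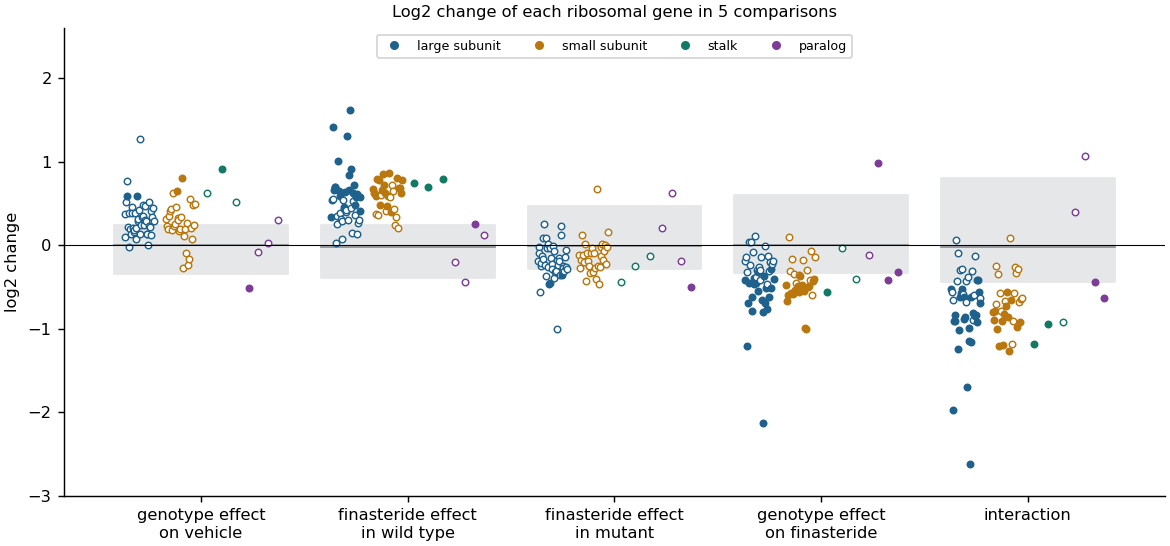
Log2 change of the large subunit, small subunit, stalk and paralog genes in the 5 comparisons. Each point is a gene, filled points passed limma at an adjusted p under 0.05, the grey band spans the lower to the upper quartile of all tested genes and the grey line is their median. Most points lie above the median of all genes for finasteride in wild type and below it for the interaction.

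In the mutant, finasteride was followed by lower values of 4 of the 85 members and higher values of none (limma adjusted p under 0.05, with 0 higher at an unadjusted p under 0.05), beside 22.8% of all tested genes lower and 25.7% higher. The median change was -0.18, beside -0.01 for all tested genes, with -0.21 for the large subunit, -0.13 for the small subunit and -0.24 for the stalk. The groups did not overlap in 3 members (3.53%), beside 24.8% of all tested genes. Over 11 libraries 1 member was lower, Rpl24, where 20.2% of all tested genes passed. With each library scaled to the same sum the split turned from 0 higher and 4 lower to 3 higher and 0 lower, beside 40.7% of all tested genes higher and 7.91% lower, and the median from -0.18 to 0.08, as the median of all tested genes moved to 0.24. The members lay at -0.16 relative to the median of all tested genes, a distance that this scaling cannot change, and at -0.02 after quantile normalization.

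The members called lower were Rps27l, Rpl24, Rpl27 and Rpl4. Rps27l, a paralog of Rps27 known as a p53 target, had 11.34, 11.41 and 11.32 in the mutant on vehicle and 10.68, 11.04, 10.74, 10.82 and 10.98 on finasteride. These values were apart, with a change of -0.50 ± 0.11 (SE, limma adjusted p = 0.00113, and 0.0519 over 11 libraries). With equal sums it was -0.25 with adjusted p = 0.0758. Of 12 other p53 targets, 3 rose and 4 fell, and with equal sums 4 rose and 2 fell. Rpl24, which takes part in a bridge between the subunits, had 9.55, 9.41 and 9.50 on vehicle and 9.15, 8.74, 9.07, 9.09 and 9.08 on finasteride, without overlap. It changed by -0.46 ± 0.09 (SE, limma adjusted p = 0.000887, and 0.0396 over 11 libraries), and with equal sums by -0.20 with adjusted p = 0.129.

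Markers of immune cells moved strongly in the same comparison. All 7 T and NK cell markers, all 6 B and plasma cell markers and all 6 macrophage markers rose, with summed log2 levels of 8.24 to 8.32 against 9.24 to 9.97, 6.24 to 6.61 against 11.14 to 11.71, and 11.20 to 11.30 against 12.07 to 12.78. The summed level of the 7 seminal vesicle markers was 16.61 to 17.92 on vehicle and 16.65 to 21.54 on finasteride. For the 5 luminal markers it was 16.44 to 16.51 and then 15.33 to 15.69, where Pbsn changed by -4.61, Cdh1 by 0.516 and Krt8 by 0.505. Their part in the ribosomal values was not tested. Mutant finasteride 2 had the highest T and NK cell level of the group, 9.97, the lowest seminal vesicle level, 16.65 against 20.49 to 21.54 in the other 4, and the highest ribosomal values.

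On finasteride, 46 of 85 members were lower in the mutant than in wild type and 1 was higher (limma adjusted p under 0.05), beside 30.4% of all tested genes lower and 33.2% higher. The lower members were 22 of 43 large subunit genes, 19 of 31 small subunit genes, Rplp0, the paralogs Rpl7l1 and Rps27l, and Rps3a2 and Rps3a3. The median change was -0.42, beside 0.01 for all tested genes, with -0.38 for the large and -0.48 for the small subunit. The groups did not overlap in 3 members, Rpl12, Rpl24 and Rpl7l1 (3.53%), beside 18.7% of all tested genes. Over 11 libraries 5 were lower, where 41% of all tested genes passed. With each library scaled to the same sum 2 members were higher and 2 lower, beside 57.7% of all tested genes higher and 9.11% lower, and the median was -0.04 where that of all tested genes was 0.39. The members lay at -0.43 relative to the median of all tested genes, a distance that this scaling cannot change, and at -0.26 after quantile normalization.

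Cell type markers differed widely between the treated groups. The 7 seminal vesicle markers had a summed log2 level of 16.65 to 21.54 in the mutant against 9.40 to 14.34 in wild type. The 5 adipocyte markers had 9.43 to 9.86 against 4.77 to 8.73. All 7 T and NK cell markers were higher in the mutant, with a summed log2 level of 9.24 to 9.97 against 6.91 to 7.53, as were all 6 B and plasma cell markers, with 11.14 to 11.71 against 6.12 to 6.88, and all 6 macrophage markers, with 12.07 to 12.78 against 10.81 to 11.45. Of 5 luminal markers 2 were higher and 2 lower, with 15.33 to 15.69 in the mutant against 17.77 to 18.49. The 2 lower were Pbsn, at -6.92, and Krt18, at -0.67, while Epcam was higher, at 0.60. Their part in the ribosomal values was not tested.

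Rpl35 showed the widest gap here. The treated mutants had 6.21, 6.83, 5.80, 7.23 and 6.57, of which library 4 overlapped treated wild type library 2. The change was -2.13 ± 0.52 (SE, limma adjusted p = 0.00219, and 0.0368 over 11 libraries), and with equal sums it was -1.75 with adjusted p = 0.00752. Rpl12 had 8.39, 9.70, 9.54, 8.79 and 9.89 in the treated mutants, all below the treated wild types, a change of -1.21 ± 0.32 (SE, limma adjusted p = 0.00432, and 0.055 over 11 libraries), and with equal sums of -0.82 with adjusted p = 0.0382. Rpl7l1, a nucleolar paralog of Rpl7 that acts in the making of the large subunit, had 10.96, 10.64, 11.03, 10.87 and 10.82 in wild type and 10.36, 10.56, 10.38, 10.42 and 10.50 in mutant libraries on finasteride. Its groups did not overlap, with a change of -0.42 ± 0.07 (SE, limma adjusted p = 6.71e-05, and 0.013 over 11 libraries), which shrank to -0.04 with adjusted p = 0.657 with equal sums. In that scaling Rps27l turned from -0.33 to 0.06 and Rplp0 went from -0.57 to -0.18, and neither passed.

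Rpl3l, the paralog of Rpl3 used in striated muscle, was the 1 member higher in treated mutants. It had 3.39, 3.52, 2.77, 3.11 and 2.97 in wild type and 4.77, 3.17, 4.39, 4.66 and 3.72 in the mutant on finasteride, with mutant library 2 inside the wild type range. The change was 0.99 ± 0.30 (SE, limma adjusted p = 0.00958), and it became 0.72 with adjusted p = 0.144 over 11 libraries and 0.40 with 0.199 after quantile normalization, and 1.37 with 0.0007 with equal sums. Of 9 striated muscle markers 4 were higher and 0 lower in treated mutants against treated wild types, beside 33.2% of all tested genes higher, and their summed log2 levels overlapped, with 12.07 to 12.53 (median 12.25) against 11.55 to 12.55 (median 12.36).

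**Figure D3:**
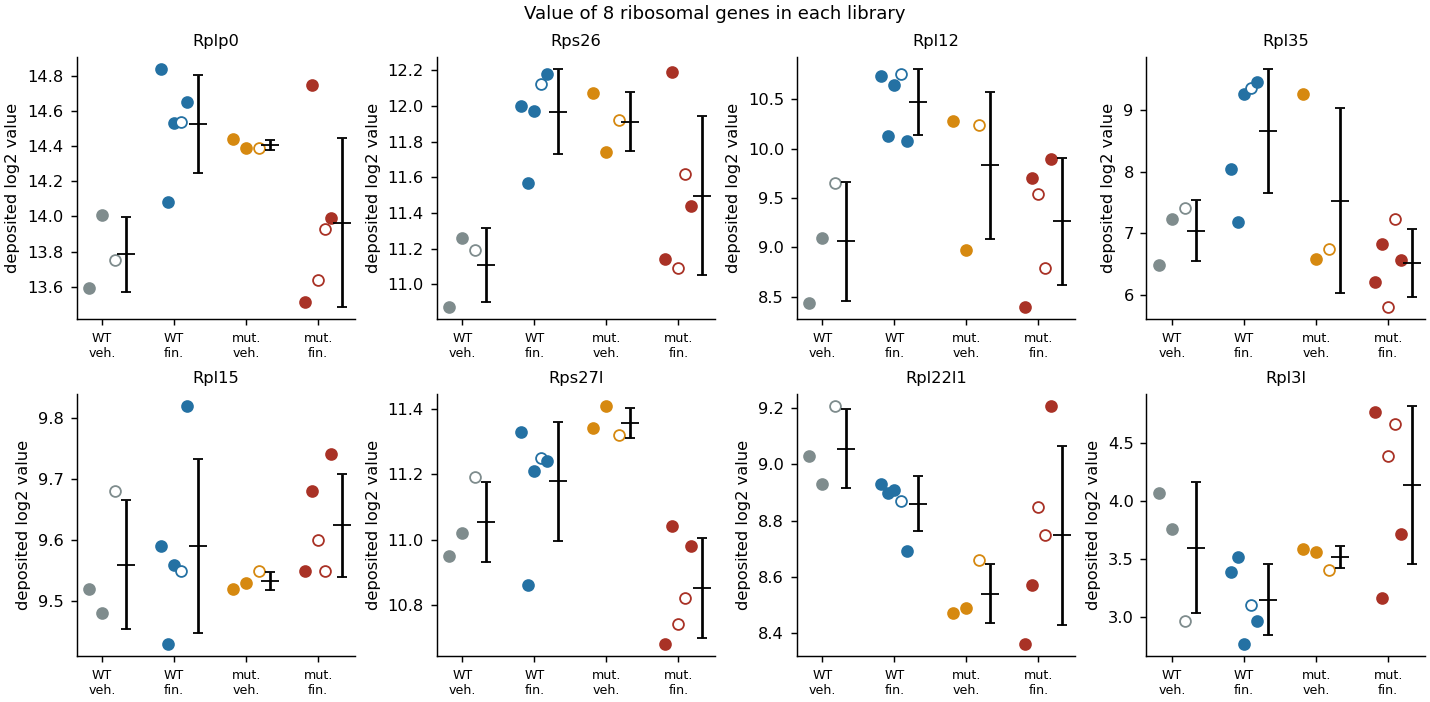
Deposited log2 value of 8 ribosomal genes in each library. Points are libraries, open points are those close to a mixture of others, and bars are the group mean ± SD (n = 3, 5, 3 and 5). Rplp0, Rps26, Rpl12 and Rpl35 are higher in wild type on finasteride than on vehicle, Rpl15 is level, and Rpl3l is highest in treated mutants.

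The test of the difference between the finasteride effects asked whether the response depended on genotype. The mutant effect minus the wild type effect was lower for 45 of the 85 members and higher for none (limma adjusted p under 0.05, with 1 higher at an unadjusted p under 0.05), beside 27.2% of all tested genes lower and 29.4% higher. These were 26 of 43 large subunit genes, 15 of 31 small subunit genes, 2 of 3 stalk genes and 2 of 4 paralogs. The median was -0.66, beside -0.02 for all tested genes, with -0.64 for the large subunit, -0.73 for the small subunit and -0.94 for the stalk. Over 11 libraries 5 were lower, where 29.3% of all tested genes passed, and the median was -0.58. With each library scaled to the same sum 3 were higher and 6 lower, beside 42.9% of all tested genes higher and 9.15% lower, and the median was -0.29 where that of all tested genes was 0.35. The members lay at -0.63 relative to the median of all tested genes, a distance that this scaling cannot change, and at -0.47 after quantile normalization. The 4 comparisons and this difference share libraries, so their values stand side by side and are not independent of one another.

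The members with the largest differences between the genotypes' responses were Rpl35 at -2.62 ± 0.85 (SE, limma adjusted p = 0.0161), Rpl12 at -1.98 ± 0.53 (SE, limma adjusted p = 0.00518) and Rpl30 at -1.70 ± 0.68 (SE, limma adjusted p = 0.0447). With equal sums they were -2.25, -1.61 and -1.33, with adjusted p of 0.0365, 0.0207 and 0.111, and over 11 libraries all lost the call (0.0595, 0.0507 and 0.261). Rpl35 in the mutant on vehicle had 9.26, 6.59 and 6.75, so that 1 library held much of that effect: without mutant vehicle 1 the difference was -1.76 with adjusted p = 0.0522. Rps26 differed by -1.27 ± 0.29 (SE, limma adjusted p = 0.00168, and 0.045 over 11 libraries) and Rplp0 by -1.19 ± 0.32 (SE, limma adjusted p = 0.00503, and 0.105 over 11 libraries), and with equal sums both passed, at -0.90 and -0.82 (0.0224 and 0.0476).

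Within groups the members rose and fell together from library to library. Over the 77 subunit and stalk genes, the first principal component of the values after removal of group means held 57.1% of the variance. In wild type finasteride 2, 3 of 77 genes lay above their group mean, in mutant finasteride 1 again 3 of 77, and in mutant finasteride 2, 74 of 77. The median Pearson r between pairs of these genes over the 16 libraries was 0.78, a description of genes that share libraries and scaling. Of the 77, 60 had an r over 0.8 with the mean of all 77, of which each is a part, and 7 had an r under 0.5. Among the 85, Rpl3l ran opposite to that mean (-0.74), and those closest to no relation with it were Rpl22l1 (-0.05), Rpl24 (0.06), Rps27 (0.07) and Rpl11 (0.14).

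Rps27, a small subunit protein with a zinc finger, moved with no group. Its values were 7.89, 5.85 and 6.20 in wild type on vehicle, 7.53, 7.83, 6.29, 6.27 and 8.21 in wild type on finasteride, 7.63, 5.46 and 6.05 in the mutant on vehicle and 7.51, 7.64, 7.83, 5.95 and 6.29 in the mutant on finasteride. Each group held libraries near 6 and libraries above 7.5, and every comparison of Rps27 missed the threshold (limma adjusted p of 0.397 to 0.94). Of the 100-base windows of its transcript, 98.4% also occur in at least 1 of 2 other annotated genes.

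**Figure D4:**
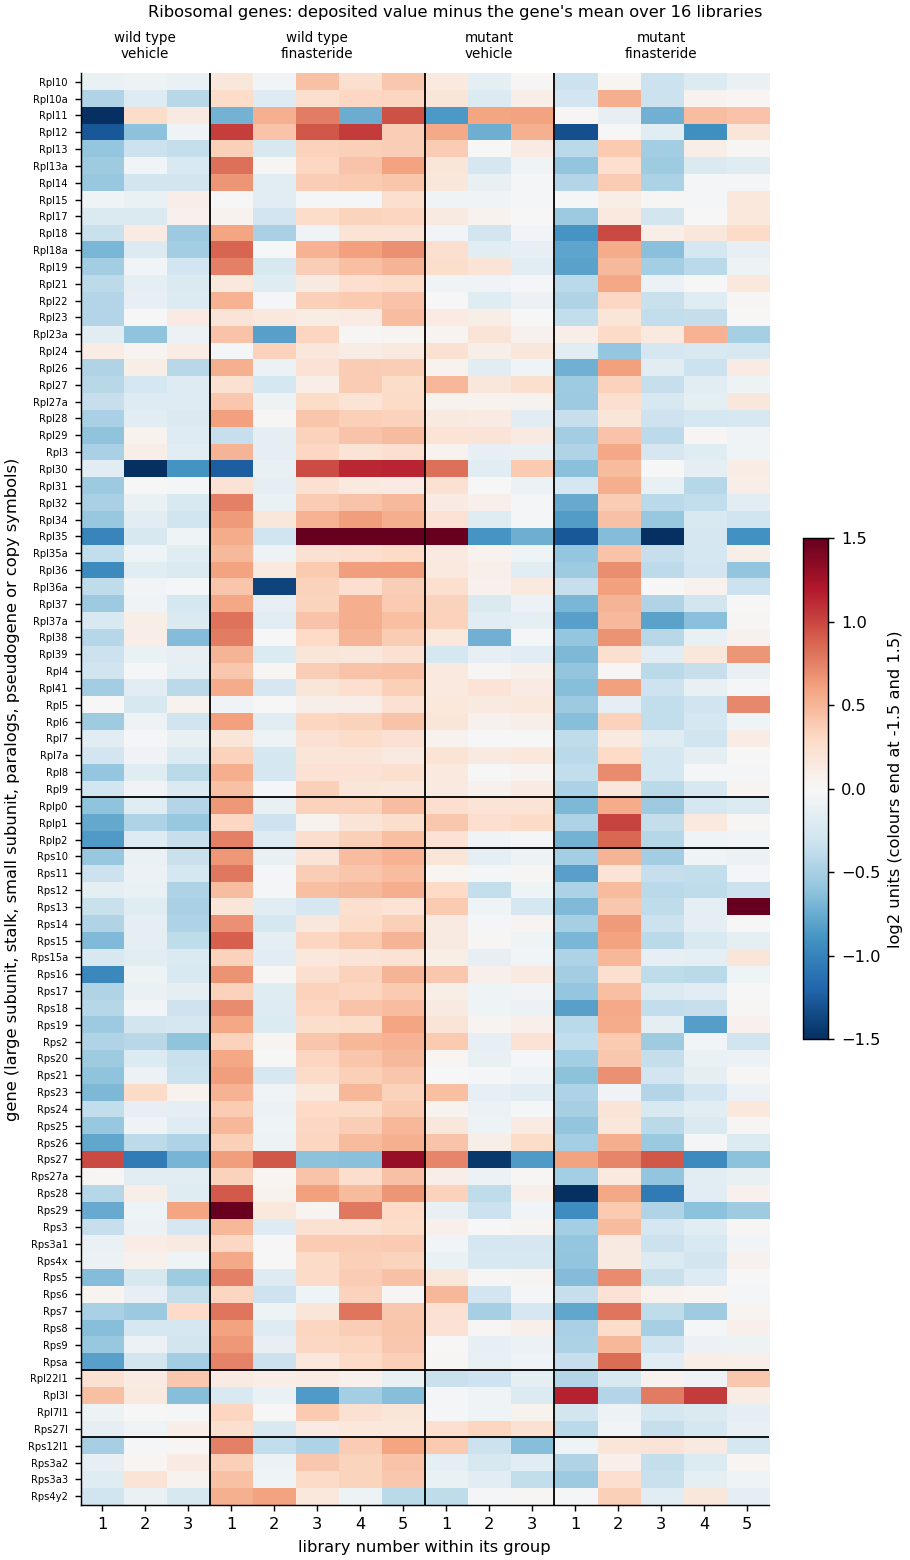
Deposited log2 value of each of the 85 members minus its own mean over the 16 libraries, in log2 units. Rows are genes by class, columns are libraries by group, red is above and blue below the gene's mean. Columns for wild type finasteride 2, mutant finasteride 1 and mutant finasteride 2 show the shifts shared by most genes, and Rps27, Rpl11 and Rpl3l break from them.

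Reads of these genes can be shared with pseudogenes. The table holds 221 rows named as pseudogenes of the members, 96 of them tested, for 54 members. In 21 of the 54 the highest pseudogene row lay above the gene's own row. Rps6 had a mean of 7.32 and Rps6-ps4 12.21, and Rps16 had 7.80 and Rps16-ps2 12.91, so that these genes held 3.23% and 2.79% of the sum of their gene and pseudogene rows. Rpl23a held 0.988% and Rps13 5.8%. Whether values were divided by transcript length is not stated, and gene and processed pseudogene are of like length. Over the 77 subunit and stalk genes, the mean level had a Spearman rho of -0.58 with the share of the transcript's 100-base windows that also occur in another annotated gene (GENCODE M21), a description over genes that differ in expression as well.

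The pseudogene rows moved in the direction of the genes, and rows that share reads with their gene are not a separate observation of it. On finasteride in wild type 31 of 96 were higher and 0 lower with a median of 0.47, beside 18.4% of all tested genes higher. In treated mutants against treated wild types 0 were higher and 42 lower, beside 30.4% of all tested genes lower. In the interaction 0 were higher and 31 lower, beside 27.2% lower (limma adjusted p under 0.05). With equal sums these counts were 17 and 0, 2 and 3, and 0 and 4. The same shares of all tested genes were then 9.47%, 9.11% and 9.15%. With the pseudogene rows added to their genes before the fit, 48 members were higher on finasteride in wild type in place of 46 and 44 lower in the interaction in place of 45. The addition changed single genes. Rpl23a went from 0.29 ± 0.28 (SE, limma adjusted p = 0.425) to 0.67 ± 0.16 (SE, limma adjusted p = 0.00505), while Rps6 went from 0.21 to 0.32 ± 0.15 (SE, limma adjusted p = 0.103).

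**Figure D5:**
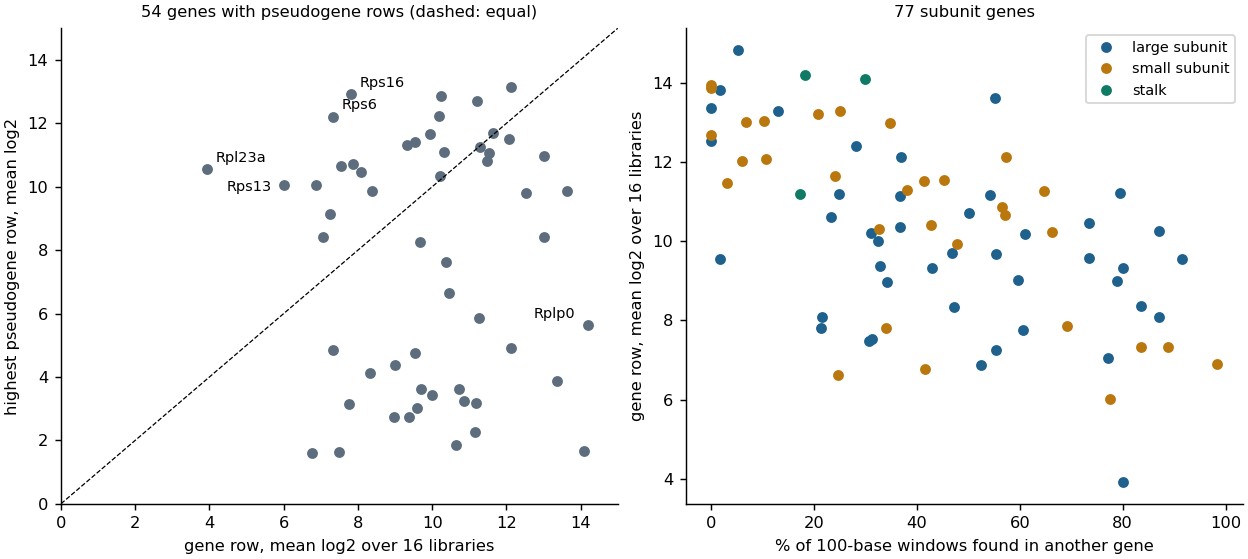
Left, mean log2 value of the gene row against that of its highest pseudogene row for the 54 genes that have one, with equal values on the dashed line. Right, mean log2 value of 77 genes against the percent of their transcript's 100-base windows found in another gene. In 21 of the 54 genes the pseudogene row is the higher, and genes with more shared windows have lower values (Spearman rho of -0.58).

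Genes around the ribosome were read from lists. Of 40 ribosome assembly factors, 23 rose and 0 fell on finasteride in wild type, 0 rose and 14 fell in the mutant, and 0 were higher and 29 lower in the interaction. With equal sums the counts were 11 and 2, 3 and 2, and 3 and 6. Relative to the median of all tested genes they lay at 0.30, -0.18 and -0.48, which this scaling cannot change, and at 0.17, -0.11 and -0.21 after quantile normalization. Tsr1, a late small subunit assembly factor, rose by 0.43 ± 0.07 in wild type and fell by 0.66 ± 0.07 in the mutant (SE, limma adjusted p = 0.000449 and 4.35e-06), and passed in both with equal sums too (0.32 and -0.40). Of 14 RNA polymerase I genes, 7 rose and 1 fell in wild type and 0 rose and 4 fell in the mutant. Polr1b, its second largest subunit, rose by 0.60 ± 0.10 and fell by 0.33 ± 0.10 (SE, limma adjusted p = 0.000577 and 0.0176). With equal sums 5 rose and 1 fell in wild type and 2 rose and 0 fell in the mutant, where Polr1b was at -0.07 with adjusted p = 0.658.

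Of 26 translation factors and others with TOP mRNAs, 17 rose and 1 fell in wild type, 2 rose and 10 fell in the mutant, and 2 were higher and 17 lower in the interaction. With equal sums the counts were 10 and 2, 2 and 2, and 2 and 5. Pabpc1, the cytoplasmic poly-A binding protein, rose by 0.70 ± 0.08 in wild type and fell by 0.99 ± 0.08 in the mutant (SE, limma adjusted p = 4.37e-05 and 3.66e-07), and both passed with equal sums (0.59 and -0.73). Vim, the mesenchymal intermediate filament, which also has a TOP mRNA, went the other way, by -0.83 ± 0.12 and 1.30 ± 0.12 (SE, limma adjusted p = 0.000214 and 1.24e-06). Fau, whose product is cleaved to the small subunit protein eS30, rose by 1.37 ± 0.27 in wild type (SE, limma adjusted p = 0.00138) and changed by -0.53 ± 0.27 in the mutant (SE, limma adjusted p = 0.117).

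Of 26 tested regulators of TOP mRNAs, mTOR and Myc signalling, 14 rose and 0 fell in wild type and 0 rose and 18 fell in the mutant, with inhibitors and activators among both. With equal sums 8 rose and 1 fell in wild type and 1 rose and 10 fell in the mutant. Larp1 rose by 0.27 ± 0.06 and fell by 0.54 ± 0.06 (SE, limma adjusted p = 0.00367 and 7e-06), and Myc rose by 0.33 ± 0.08 and fell by 0.36 ± 0.08 (SE, limma adjusted p = 0.00674 and 0.00258). With equal sums Larp1 passed in the mutant (-0.28, adjusted p = 0.00815) and not in wild type (0.136), and Myc passed in neither (0.113 and 0.444). Ddit4 and Sesn2, which restrain mTOR complex 1, rose in wild type by 1.38 ± 0.22 and 0.97 ± 0.16 (SE, limma adjusted p = 0.000328 and 0.000392). Of 75 mitochondrial ribosome genes, 28 rose and 0 fell in wild type, 3 rose and 14 fell in the mutant, and 2 were higher and 39 lower in the interaction. With equal sums their counts were 10 and 1, 16 and 0, and 9 and 7. Relative to the median of all tested genes they lay at 0.27, -0.12 and -0.33, which this scaling cannot change, and at 0.19, -0.08 and -0.22 after quantile normalization. The shares of all tested genes given for the members, as deposited and with equal sums, stand beside all of these counts in the same comparisons.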

How the data were processed

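Poly-A selected RNA was sequenced in 16 libraries with 100-base reads. The tools named in the submitters' processing notes are TopHat, Cufflinks, CASAVA 1.8.2, DESeq2 and DESeq, with build mm9 and no role given for any of them. What the authors deposited are normalized values on a log scale, taken here as log2 by inference. Read depth is unknown, so no counting error is given. A model of the 4 group means was fitted with limma 3.58.1 in R 4.3.3 (variance trend) to the 16503 genes whose mean log2 value corresponds to 10 or more. The Benjamini-Hochberg adjustment ran over all of them, with a threshold of 0.05, and errors of changes are moderated standard errors. The fit to 16 libraries was tested on simulated data for genotype on vehicle and for finasteride in each genotype. Genes were drawn independently of each other there, and the other comparisons and alternative fits were not simulated. Windows of 100 bases were compared between GENCODE M21 transcripts in Python 3.11.15.

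Members and lists were chosen with earlier results of these data known. Named were Rplp0, Rps6, Rpl3, Rpsa, the paralogs, and in each comparison the highest and lowest pair. Rpl35, Rps27 and Rpl3l were named for the 3 largest SDs over libraries after each library's mean over the members was taken out. Other members, Fau, Larp1, Myc and list genes beyond the pair of lowest p were chosen after their values were seen. Alternatives were other scalings, filters, pseudocounts, variance models and sets of libraries; summing pseudogene rows and leaving out copies were added after seeing the data.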

Additional observations from a re-analysis of the deposited data

Results flagged for a closer look

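In 36 groups of 5 libraries, over the subunit means and the 15 members named by rule, 3 values, in 2 libraries, stood apart from the rest of their group; chance gives about 1 in 20. The large subunit mean of wild type finasteride 2 was 9.76, and Rps27l in the same library was 10.86, below the other 4 libraries in each case. Rpl22l1 in wild type finasteride 5 was 8.69, also below its group.

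For 7 of the 15 members the response to finasteride differed between the genotypes by limma's test of the difference, mutant minus wild type. The log2 differences were -2.62 for Rpl35, -1.98 for Rpl12, -1.70 for Rpl30, -1.19 for Rplp0, -0.94 for Rplp1, -0.63 for Rps27l and -0.44 for Rpl7l1. Rpl22l1 (0.40 ± 0.20, SE, limma adjusted p = 0.0988) and Rpl3l (1.07 ± 0.49, SE, limma adjusted p = 0.0755) had positive differences that did not pass. With each library scaled to the same sum Rpl35, Rpl12 and Rplp0 kept their call and Rpl30, Rplp1, Rps27l and Rpl7l1 lost it, at -1.33, -0.58, -0.26 and -0.07, while Rpl3l passed at 1.43 (limma adjusted p = 0.02). Over 11 libraries Rps27l kept its call (limma adjusted p = 0.0406) and the other 6 lost it (0.0507 to 0.261).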

How the results depend on the processing

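Counts of members called, over the comparisons in the order genotype on vehicle, finasteride in wild type, finasteride in mutant, genotype on finasteride and interaction, were 6, 46, 4, 47 and 45. Over 11 libraries they were 0, 0, 1, 5 and 5, a fit with fewer samples, while the medians kept their direction. Scaling each library to the same sum gave 19 for finasteride in wild type, 4 for genotype on finasteride and 9 for the interaction; the medians of the last 3 comparisons became 0.081 (reversed), -0.039 and -0.287. It moved the median of all tested genes by -0.11, 0.26, 0.38 and 0.37 in the last 4 comparisons. Relative to that median the members lay at 0.58, -0.16, -0.43 and -0.63, which a constant per library cannot change, and after quantile normalization at 0.47, -0.02, -0.26 and -0.47. For finasteride in mutant, quantile normalization gave 9 calls and centring on the median 11. With the 2 groups compared fitted alone, genotype on vehicle gave 32 (31 higher and 1 lower). For these counts, and for those with 1 library left out, the share of all tested genes is not given. The cause of the changed counts was not tested.

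Leaving out 1 library at a time gave counts of 0 to 13, 8 to 59, 2 to 22, 33 to 65 and 27 to 66, and medians of 0.19 to 0.35, 0.46 to 0.64, -0.31 to -0.07, -0.54 to -0.33 and -0.79 to -0.55. For finasteride in wild type the count was 8 without wild type vehicle 1, 21 without wild type vehicle 3 and 30 without wild type finasteride 3. For genotype on vehicle it was 3 without wild type vehicle 1, 1 without wild type vehicle 3, 0 without mutant vehicle 1, 2 without mutant vehicle 3 and 13 without mutant finasteride 2. For finasteride in mutant it was 22 without mutant finasteride 2 and 2 without wild type vehicle 3, mutant vehicle 1 or 3, or mutant finasteride 1, 3 or 4. For the interaction it was 29 without wild type vehicle 1 and 27 without mutant vehicle 1.

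Over all 85 members, quantile normalization turned the sign of 6, 1, 20, 5 and 2 changes in the 5 comparisons and equal sums of 1, 2, 41, 33 and 14; of these, 5 under equal sums, in genotype on finasteride, had passed as deposited. Among the highest and lowest pair of each comparison, followed under every alternative, 2 reversed. Rps27, genotype on vehicle, became 0.014 under quantile normalization and ran from -0.893 to 0.352 with 1 library left out, positive without wild type vehicle 1 (0.352) or mutant vehicle 2 (0.191). Rpl23a, genotype on finasteride, became -0.545 under quantile normalization, -0.007 centred on the median, -0.039 over 11 libraries and -0.43 with pseudogene rows summed, and ran from -0.096 (without wild type finasteride 2) to 0.259 with 1 library left out. No paired analysis was possible because the numbers in the sample titles pair no libraries.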
